A study of Mus musculus with 40 samples.

Results

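Immediate early transcription factors are the regulators that a resting cell transcribes within minutes of a growth signal, injury or stress, from promoters that need no newly made protein. FOS and JUN family proteins pair through leucine zippers to form the dimeric factor AP-1, EGR1 and the KLF proteins bind GC-rich DNA through zinc fingers, ATF3 is a stress-induced bZIP protein, and MYC is a bHLH protein that works with MAX. In liver these genes are known for a brief burst after partial hepatectomy or other injury, and hepatocytes, other liver cells and the handling of the animal can each set them off. The 10 genes described here, Fos, Fosb, Jun, Junb, Jund, Egr1, Atf3, Myc, Klf6 and Klf4, were all found by symbol among the 55487 genes of the deposited count table.

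The livers came from female mice of 2 genotypes on a C57BL/6JBomTac background. HNKO mice, called KO here, carried 2 floxed Nampt alleles and Alb-Cre (Nampt fl/fl; Alb-Cre+/−), and their floxed littermates without Cre, called WT, served as controls. Mice were put on a purified diet (PD) at 9 weeks of age and sampled after 3, 6, 12 or 21 days, which the labels give as days of age, and whole liver was taken under pentobarbital sedation. RNA was depleted of ribosomal RNA, made into stranded total RNA libraries and read as 51 bp paired ends. The libraries used were 5 WT and 5 KO at day 3, 4 WT and 5 KO at day 6, 5 WT and 6 KO at day 12, and 5 WT and 3 KO at day 21. A further 2 KO libraries of day 21, numbers 17 and 18, are marked in the labels as failing quality control. They were left out, so that 38 of 40 libraries entered the main comparisons. Alb-Cre acts in hepatocytes. Whether the other cells of a KO liver keep an intact Nampt gene was not measured here, and a difference in whole liver may come from any cell type.

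Total counts per used library ran from 16151037 to 64181492 with a median of 26466479. The labels number the libraries in 2 series (1 to 21 and 22 to 41), with 18 and 20 used libraries, and both series hold every group except KO at day 21, whose 3 used libraries all belong to the second. What the series stand for is not stated. Nampt, the targeted gene, checked the genotype labels: it lay between 5.14 and 5.38 log2 CPM (counts scaled to library size, with a prior count of 2) in the KO livers of day 3 against 5.84 to 6.57 in WT, and it fell by 0.93, 0.90 and 0.82 on the log2 scale at days 3, 6 and 12, with adjusted p of 0.0193, 0.0128 and 0.0208. At day 6 the genotypes overlapped, KO library 7 at 6.36 lying above WT libraries 27 and 28 at 6.00 and 5.99 (exact permutation p = 0.0635). At day 21 the log2 fold change was −0.69 (adjusted p = 0.161), and all 3 KO values lay below every WT value. Except for the correlations, adjusted p comes from edgeR's quasi-likelihood test on the counts with Benjamini-Hochberg adjustment over the 20297 genes tested, and a gene is called where it is under 0.05.

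All 10 members passed the filter on low counts. Read per kilobase of annotated exon (RPKM, mean ± SD over the 19 WT livers), Junb stood at 24.3 ± 12.2, Jun at 14.8 ± 5.48 and Jund at 9.01 ± 2.88. They were followed by Egr1 at 6.90 ± 4.68, Klf6 at 5.35 ± 0.585, Atf3 at 2.87 ± 1.45 and Fos at 1.88 ± 1.51. Myc at 1.48 ± 1.05, Klf4 at 0.744 ± 0.164 and Fosb at 0.0642 ± 0.0471 were the lowest. Neighbours in that order overlapped within 1 SD of their means except Klf6 over Atf3 and Klf4 over Fosb. Egr1 exceeded Klf6 in 10 of 19 WT livers, so these neighbours could not be ordered, while Klf4 exceeded Fosb in 19 of 19. The depth behind these levels differed: Fosb had 2 to 75 counts per library, Fos 18 to 949, and Junb 469 to 5067.

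The comparison of KO with WT on each day asks whether loss of Nampt in hepatocytes changed these genes as the diet went on. By this test 1 of 10 members was called at day 3 (Klf6), when 4.66% of all tested genes were called. At day 6 the count was 3 of 10 (Fos, Fosb and Klf6) against 12.8% of all genes, and at day 12 it was 1 of 10 (Fos) against 7.82%. At day 21 edgeR called 0 of 10, with 0 at an unadjusted p under 0.05 and 0 by DESeq2, against 3.12% of all genes. Averaged over the 4 days 4 of 10 were called (Fos, Fosb, Atf3 and Klf6), close to the 36.4% of all genes called in that comparison. With the label series as a covariate 6 of 10 were called, Junb and Myc being added. The 36.4% is not from that fit, so it gives no background for the 6. All of these calls were higher in KO, and DESeq2 called the same members in each of the 5 comparisons. In whole liver a difference in the number of cells of a type and in the RNA per cell cannot be told apart.

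The day counts rested on small margins. With only the WT and KO libraries of the day in the fit, the counts were 0 at day 3 and 0 at day 6, and with all 40 libraries they were 0 at day 3 and 0 at day 12. Leaving out 1 library at a time gave 0 to 1 members at day 3, 0 to 3 at day 6, 0 to 2 at day 12, and 2 to 5 for the average of the days; the libraries are named with each gene. The members' median log2 fold change was 0.20, 0.43, 0.29 and 0.27 at days 3, 6, 12 and 21 and 0.47 for the average, against 0.01, −0.01, 0.00, −0.01 and −0.01 for all tested genes. By sign, 6, 8, 7 and 8 of the 10 members were higher in KO on the respective days. The median standard error (SE) of a member's fold change was 0.39, 0.42, 0.37 and 0.45, against 0.20, 0.22, 0.19 and 0.23 for all genes. The 4 days share no animals, and within a day all members were read in the same livers, so the members are not independent of each other.

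In no member did all KO libraries of a day lie apart from all WT libraries. That count of 0 at days 3, 6, 12 and 21 stands beside 4.11%, 12.8%, 4.79% and 13.9% of all tested genes, in either direction. Of 40 exact two-sided permutation tests (10 members on 4 days, unadjusted), 5 gave a p under 0.05, and they were those of Klf6 at days 3 and 6, Fos at days 6 and 12 and Fosb at day 6.

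**Figure D1:**
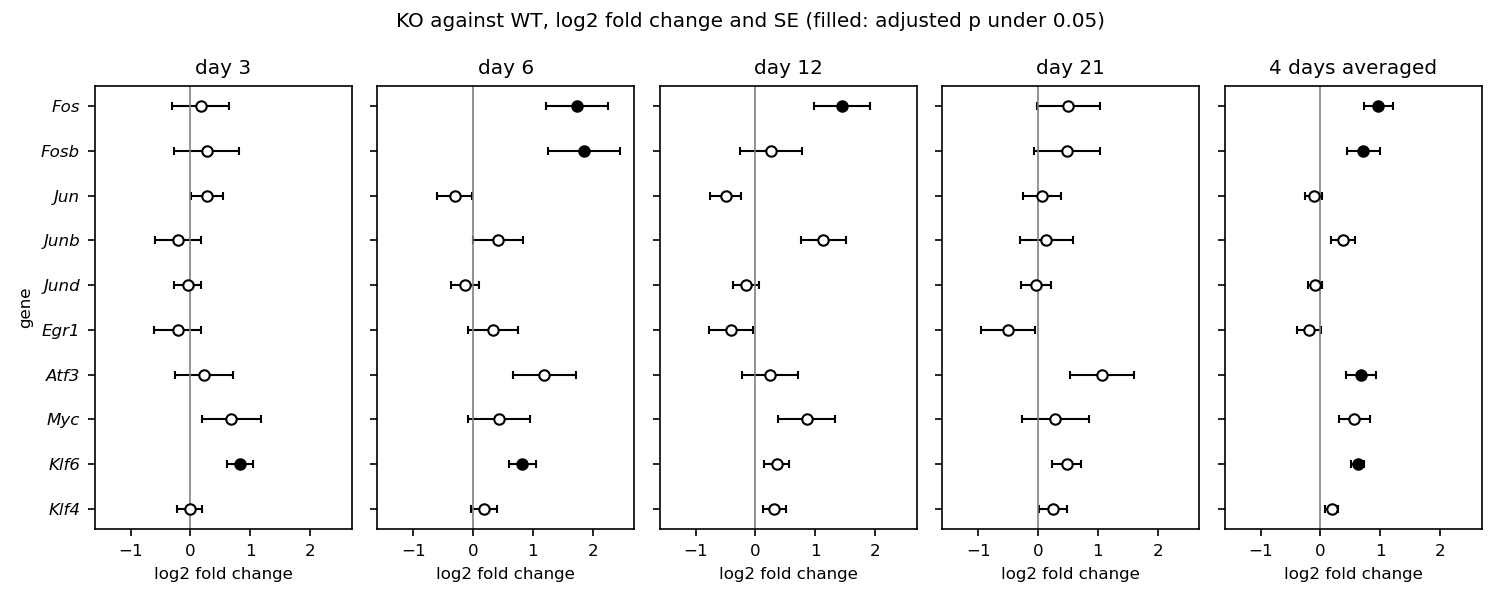
The log2 fold change of KO against WT (horizontal axis) with its SE is drawn for each of the 10 members at days 3, 6, 12 and 21 and averaged over the 4 days; filled points have an adjusted p under 0.05. Klf6 lies at 0.83 and 0.82 at days 3 and 6, and Fos at 1.74 and 1.44 at days 6 and 12, while Jun and Egr1 lie on either side of 0 and Jund below it by 0.16 or less.

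Fos encodes the protein after which the FOS family is named, which binds DNA as a dimer with a JUN protein. The gene lies on chromosome 12 from 85473890 to 85477273 on the plus strand (GRCm38, GENCODE M21), with 4 exons in its principal transcript. At day 6 Fos stood at 3.03, 2.94, 4.47, 2.38 and 3.66 log2 CPM in KO libraries 6, 7, 29, 30 and 31, and at −0.23, 2.03, 2.59 and 1.49 in WT libraries 8, 10, 27 and 28. All KO livers but that of library 30 lay above every WT liver, library 29 was the highest of the 38 libraries, and library 8, with 18 counts, was the lowest. The means were 3.30 ± 0.80 (SD, n = 5) in KO and 1.47 ± 1.22 (SD, n = 4) in WT. Fos rose by a log2 fold change of 1.74 at day 6 (SE 0.52, adjusted p = 0.0242; exact permutation p = 0.0238). The call ended without WT library 8 (1.41, adjusted p = 0.0999), without WT library 28 (1.65, 0.0648), without KO library 29 (1.35, 0.128), and with only the libraries of day 6 in the fit (1.74, 0.0724).

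At day 12 Fos had a lowest, median and highest value of 1.35, 2.91 and 4.01 log2 CPM over the 6 KO livers, and stood at 1.26, 0.82, 1.81, 1.93 and 1.82 in WT libraries 14, 15, 16, 33 and 34. The KO liver of library 32 was the lowest of its group and lay among the WT livers, and the other 5 KO livers lay above all WT livers. Fos rose by 1.44 (SE 0.46, adjusted p = 0.0492; exact permutation p = 0.0195). This call ended with the omission of WT library 14 (1.37), 15 (1.30), 16 (1.51), 33 (1.55) or 34 (1.51) and of KO library 11 (1.11), 12 (1.42), 13 (1.44) or 36 (1.49), with adjusted p between 0.0513 and 0.143. It also ended without a filter on low counts (1.45, adjusted p = 0.0584), with all 40 libraries (1.45, 0.0718) and with robust estimation of the dispersion (1.44, 0.0587).

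The day 3 and day 21 values of Fos overlapped between the genotypes. They ran from 1.83 to 2.59 log2 CPM in KO and 1.24 to 3.25 in WT at day 3 (log2 fold change 0.17, adjusted p = 0.881; 0.71 without WT library 5), and from 3.00 to 3.74 in KO and 1.64 to 4.07 in WT at day 21 (0.51, 0.674; 0.27 to 1.12 with 1 library left out). Averaged over the days Fos rose by 0.97 (SE 0.25, adjusted p = 0.00226), and it was called without any 1 of the 38 libraries, at 0.88 to 1.12. Within the label series, the KO minus WT difference of mean log2 CPM was positive in 6 of 7 comparisons. It was −0.37 in the first series at day 3, 2.09 and 1.46 in the series at day 6, and 2.10 against 0.34 at day 12.

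Fosb, a second FOS family gene with the same dimer partners, lies on chromosome 7 from 19302696 to 19310051 on the minus strand. At day 6 it stood at −1.98, −0.54, 0.86, −0.30 and −0.48 log2 CPM in KO libraries 6, 7, 29, 30 and 31 (4, 18, 75, 13 and 23 counts), and at −1.59, −1.61, −1.66 and −2.33 in WT libraries 8, 10, 27 and 28 (6, 5, 5 and 3 counts). Library 29 was again the highest of all 38, and the KO liver of library 6 lay below 3 of the 4 WT livers while the other 4 KO livers lay above all of them. Fosb rose by 1.86 at day 6 (SE 0.60, adjusted p = 0.0371; exact permutation p = 0.0397). The call ended without WT library 8 (1.95, adjusted p = 0.0748), 10 (1.93, 0.0733), 27 (1.91, 0.0678) or 28 (1.66, 0.105) and without KO library 29 (1.32, 0.225). It ended as well without a filter on low counts (1.87, 0.0548), with all 40 libraries (1.83, 0.0910) and with only the libraries of day 6 (1.86, 0.0735).

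On the other days Fosb was not called, with log2 fold changes of 0.27, 0.26 and 0.48 at days 3, 12 and 21; leaving out 1 library gave 0.0421 to 0.56 at day 3 and 0.21 to 1.03 at day 21. Averaged over the days it was 0.72 higher in KO (SE 0.28, adjusted p = 0.0407). That call ended without any 1 of libraries 2, 3, 11, 12, 24, 26, 21, 28, 29, 33, 37, 39 and 41, at 0.59 to 0.69 with adjusted p of 0.0544 to 0.0871. It ended too without a filter on low counts (0.72, 0.0587) and with all 40 libraries (0.63, 0.106). With 2 to 75 counts in a library, Fosb was the member with the largest counting error.

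**Figure D2:**
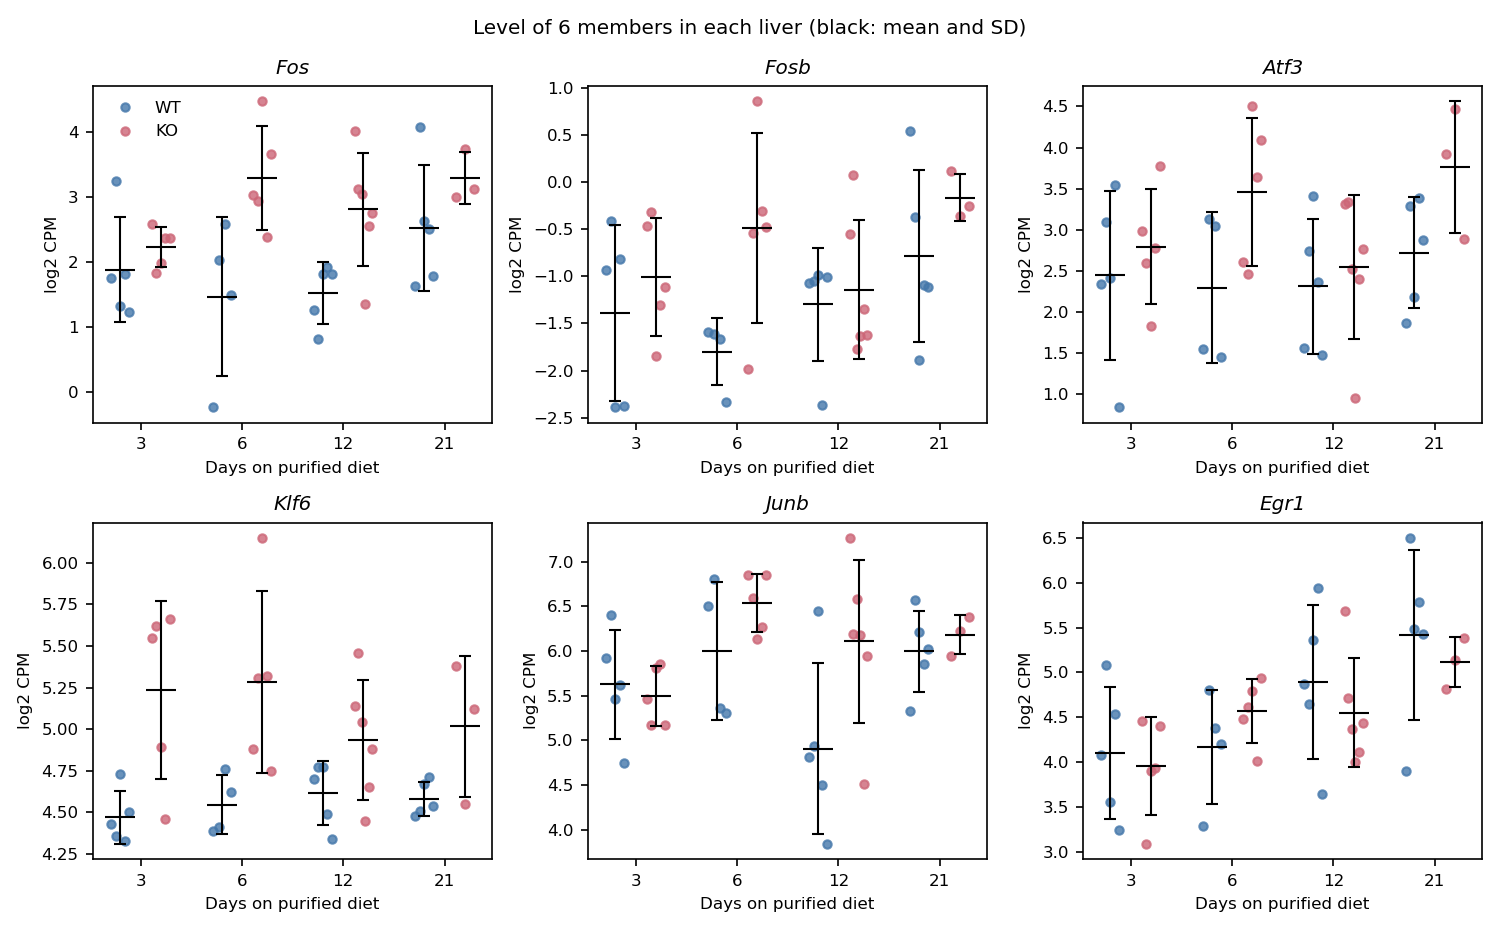
Each point is the log2 CPM (vertical axis) of Fos, Fosb, Atf3, Klf6, Junb or Egr1 in 1 liver, by days on purified diet, with WT on the left and KO on the right of each day; black marks are the group mean and SD. The SD of Klf6 within groups is 0.16 in WT and 0.47 in KO, and library 29 is the highest KO point at day 6 in the panels of Fos, Fosb, Atf3 and Klf6.

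Jun, Junb and Jund encode the JUN proteins, which dimerise with FOS and ATF proteins or among themselves, JUNB and JUND being weaker activators than JUN in many settings. None of these genes was called on any day or for the average. Jun (chromosome 4, 95049034 to 95052222, minus strand, 1 exon) ranged from 3.82 to 6.43 log2 CPM over the 38 libraries, with log2 fold changes of 0.28, −0.30, −0.49 and 0.06 at days 3, 6, 12 and 21 and −0.11 averaged (adjusted p = 0.571). Jund (chromosome 8, 70698949 to 70700616, plus strand, 1 exon) ranged from 3.13 to 4.76, with fold changes between −0.16 and −0.03 on the 4 days and −0.09 averaged (adjusted p = 0.566). With the label series as a covariate the day 21 value of Jund was 0.26.

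Junb (chromosome 8, 84974484 to 84978718, minus strand) came nearest to a call at day 12. Its lowest, median and highest values were 4.51, 6.19 and 7.27 log2 CPM over the 6 KO livers, against 4.81, 4.94, 6.45, 4.50 and 3.84 in WT libraries 14, 15, 16, 33 and 34. WT library 16 lay above 4 of the 6 KO livers and KO library 35 below 3 of the 5 WT livers. Its fold change there was 1.14 on the log2 scale (SE 0.38, adjusted p = 0.0568; exact permutation p = 0.0649). Junb was called at day 12 without WT library 16 (1.75, adjusted p = 0.00705), without KO library 35 (1.35, 0.0211), with the label series as a covariate (1.23, 0.0147) and with only genes kept that have 10 or more counts throughout (1.16, 0.0499). For the average the value of 0.37 (SE 0.20, adjusted p = 0.152) became a call without WT library 16 (0.52, 0.0207) and with the series as a covariate (0.54, 0.0136). At days 3, 6 and 21 the fold changes were −0.21, 0.42 and 0.14.

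The exons of these genes overlap those of genes on the opposite strand, and the strand setting of the authors' counting is not stated. Junb shares 173 bases (7.52% of its exon length) with Prdx2, a peroxiredoxin gene with a median of 1992 counts against 1671 for Junb. Jun shares 232 bases (7.28%) with the antisense gene Junos, which had a median of 22 counts. Jund shares 877 bases (52.6%) with the antisense gene Gm11175, which had a median of 0 counts. Of the stretches of 51 bases in their transcripts, 5.72%, 5.80% and 48.2% occur in the transcripts of Prdx2, Junos and Gm11175 on either strand, and reads from there cannot be assigned without strand. Klf4 shares 7 such stretches (0.230%) with Gm48640, and the other 6 members share 0.

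Egr1, a zinc finger factor that many growth signals switch on through the serum response factor, lies on chromosome 18 from 34859823 to 34864984 on the plus strand. It was not called between the genotypes, with log2 fold changes of −0.21, 0.34, −0.41 and −0.50 at days 3, 6, 12 and 21 and −0.19 averaged (SE 0.20, adjusted p = 0.492). Leaving out 1 library gave −0.39 to 0.0932, 0.12 to 0.57, −0.74 to −0.0761 and −0.73 to −0.16 on the 4 days. It was the only member called for a day effect within WT (1 of 10, against 5.84% of all genes, by both edgeR and DESeq2). In WT libraries 1, 5, 24, 25 and 26 of day 3 it stood at 4.08, 5.08, 3.56, 4.54 and 3.24 log2 CPM, and in libraries 8, 10, 27 and 28 of day 6 at 3.29, 4.80, 4.38 and 4.20. In libraries 14, 15, 16, 33 and 34 of day 12 it stood at 4.87, 4.65, 5.36, 5.94 and 3.64, and in libraries 19, 20, 21, 39 and 41 of day 21 at 3.90, 6.50, 5.48, 5.78 and 5.43. The livers of day 21 lay above every liver of day 3 except that of library 19, and the livers of days 6 and 12 overlapped with both.

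The group means of Egr1 in WT were 4.10 ± 0.74, 4.17 ± 0.64, 4.89 ± 0.86 and 5.42 ± 0.95 (SD; n = 5, 4, 5 and 5; adjusted p = 0.0458). The call ended without any 1 of the WT libraries 1, 8, 14, 15, 20, 21, 24, 25, 26, 27, 28, 39 and 41, with adjusted p from 0.0515 to 0.156, the last without library 20. It also ended with all 40 libraries (0.0631) and with robust estimation (0.0668). In KO the means were 3.96, 4.57, 4.55 and 5.12, and the day effect was not called (adjusted p = 0.343).

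For KO edgeR called 0 of 10 members for a day effect, with 0 at an unadjusted p under 0.05 and 0 by DESeq2, against 7.90% of all genes. For the test of whether the genotype difference itself varied between days edgeR called 0 of 10 members, with 0 at an unadjusted p under 0.05 and 0 by DESeq2, against 0% of all genes. The smallest unadjusted p of that test was 0.0952, for Fos. The calls of Fos at days 6 and 12, and of Klf6 at days 3 and 6, are therefore not shown to differ from their values on the remaining days. In WT, Jund had means between 3.92 and 4.10 at days 3 to 12 and of 3.43 at day 21 (unadjusted p = 0.0269, adjusted p = 0.170) and was called with the label series as a covariate (adjusted p = 0.0162), and Junb was called without WT library 16 (0.0310).

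Atf3 encodes a bZIP protein of the ATF/CREB family that stress induces and that acts on many promoters as a repressor. It lies on chromosome 1 from 191170296 to 191218039 on the minus strand, with 4 exons in its principal transcript. At day 6 it stood at 2.61, 2.46, 4.50, 3.64 and 4.09 log2 CPM in KO libraries 6, 7, 29, 30 and 31, and at 1.55, 3.13, 3.05 and 1.45 in WT libraries 8, 10, 27 and 28. At day 21 it stood at 3.92, 4.47 and 2.89 in KO libraries 37, 38 and 40, and at 1.87, 3.29, 2.18, 3.39 and 2.87 in WT libraries 19, 20, 21, 39 and 41. On both days the genotypes overlapped, with 3 of 5 KO livers above all WT livers at day 6 and 2 of 3 at day 21. The log2 fold changes were 1.19 at day 6 (SE 0.52, adjusted p = 0.134) and 1.07 at day 21 (SE 0.54, 0.290), and 0.23 and 0.25 at days 3 and 12.

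Averaged over the days Atf3 rose by 0.68 (SE 0.25, adjusted p = 0.0313). The call ended without library 8 (0.63, adjusted p = 0.0550), 23 (0.62, 0.0545), 28 (0.62, 0.0545), 29 (0.62, 0.0552) or 38 (0.60, 0.0725) and with all 40 libraries (0.59, 0.0700).

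Myc, which drives ribosome production and cell growth in dividing cells, lies on chromosome 15 from 61985391 to 61990374 on the plus strand. It was not called on any day or for the average, with log2 fold changes of 0.68, 0.44, 0.86 and 0.29 and an average of 0.57 (SE 0.26, adjusted p = 0.0794). Without WT library 5 the day 3 value was 1.59, and without WT library 8 the day 6 value was 1.29, neither of them called. The WT livers were widely spread: library 24 stood at −0.05 and library 5 at 3.30 log2 CPM at day 3, and library 8 at 3.61 was the highest of all 38 libraries although WT. At day 12 Myc was above all WT livers in 4 of 6 KO livers, with 1.21, 2.79 and 3.21 as the lowest, median and highest KO values and 0.95 to 2.50 in WT. The average became a call without WT library 5 (0.80, adjusted p = 0.00579), without WT library 8 (0.78, 0.0121), without KO library 35 (0.63, 0.0478), with all 40 libraries (0.63, 0.0461) and with the series as a covariate (0.76, 0.0111).

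Klf6, a widely expressed zinc finger factor known in liver from activated stellate cells, lies on chromosome 13 from 5861482 to 5870394 on the plus strand. At day 3 it stood at 5.55, 5.62, 4.89, 4.46 and 5.66 log2 CPM in KO libraries 2, 3, 4, 22 and 23, and at 4.43, 4.36, 4.73, 4.33 and 4.50 in WT libraries 1, 5, 24, 25 and 26. The KO liver of library 22 lay among the WT livers and the other 4 KO livers lay above all of them. Klf6 rose by 0.83 at day 3 (SE 0.21, adjusted p = 0.0218; exact permutation p = 0.0238). The call ended without WT library 5 (0.81, adjusted p = 0.0522) or 25 (0.79, 0.0612), without KO library 2 (0.77, 0.0715), 3 (0.74, 0.0681) or 23 (0.74, 0.0807), with all 40 libraries (0.82, 0.0617) and with only the libraries of day 3 (0.84, 0.0540).

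At day 6 Klf6 stood at 4.88, 5.31, 6.15, 5.32 and 4.75 log2 CPM in KO libraries 6, 7, 29, 30 and 31, and at 4.39, 4.41, 4.76 and 4.62 in WT libraries 8, 10, 27 and 28. The genotypes overlapped only by the narrow margin between KO library 31 and WT library 27. Klf6 rose by 0.82 (SE 0.23, adjusted p = 0.0151; exact permutation p = 0.0397). This call ended without WT library 8 (0.77, adjusted p = 0.0544) or 10 (0.78, 0.0516), without KO library 29 (0.56, 0.116), and with only the libraries of day 6 (0.82, 0.0710).

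At day 12 the lowest, median and highest KO values of Klf6 were 4.45, 4.96 and 5.46 log2 CPM, against 4.34 to 4.77 in WT (log2 fold change 0.35, adjusted p = 0.288). At day 21 Klf6 stood at 5.38, 4.55 and 5.12 in KO libraries 37, 38 and 40, against 4.48 to 4.71 in WT (0.48, 0.295). Libraries 32 and 35 at day 12 and library 38 at day 21 lay within the WT range. Averaged over the days Klf6 rose by 0.62 (SE 0.11, adjusted p = 4.21e-05), and it was called without any 1 of the 38 libraries, at 0.57 to 0.69. It was higher in KO in 7 of 7 comparisons within the label series, by 0.25 to 0.96.

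Klf4, a factor of epithelial and vascular cells, lies on chromosome 4 from 55527143 to 55532466 on the minus strand and was the steadiest member, between 0.70 and 1.85 log2 CPM over the 38 libraries. Its log2 fold changes were −0.01, 0.19, 0.32 and 0.25 at days 3, 6, 12 and 21 and 0.19 averaged (adjusted p = 0.173), none of them a call.

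The members varied more between mice of 1 group than most genes did. The median within-group SD of log2 CPM was 0.67 for the members and 0.32 for all tested genes, and 9 of 10 members lay above that median. Fos (0.79), Fosb (0.76), Atf3 (0.85) and Myc (0.81) lay above the 90th percentile of all tested genes, although with a prior count of 0.5 in place of 2 they came to percentiles of 87.2, 89.3, 89.0 and 87.9. Against the genes of like mean level (10 classes of equal size), Egr1 (SD 0.67) lay at percentile 99.0, Junb (0.66) at 98.7 and Klf4 (0.31) at 47.9. Klf6 had an SD of 0.16 in WT and 0.47 in KO, while Egr1 had 0.81 in WT and 0.50 in KO; no test was made of these SDs.

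Whether mice with high Fos were also high in other members was asked with each liver's deviation from its group mean, over 38 livers and 9 relations, by permuting within groups and adjusting over the 9. Fos and Egr1 had a Pearson r of 0.72 (permutation p = 2e-05, adjusted p = 0.00018) and a Spearman rho of 0.76 (p = 1e-05, the smallest that 100000 permutations can give; adjusted p = 9e-05). Without libraries 8 and 20, the livers farthest in Fos, r was 0.66, and it was 0.94 in the first label series (n = 18) and 0.43 in the second (n = 20). Fos and Atf3 had an r of 0.61 (permutation p = 0.00039, adjusted p = 0.00175) and a rho of 0.61 (p = 0.00032, adjusted p = 0.00144), with r of 0.60 without those livers and of 0.76 and 0.69 within the series.

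Fos and Jun had an r of 0.50 (permutation p = 0.0098, adjusted p = 0.0220) and a rho of 0.44 (p = 0.0151, adjusted p = 0.0453), with r of 0.56 without libraries 8 and 20 and of 0.77 and 0.67 within the series. Fos and Jund had an r of 0.43 (permutation p = 0.00897, adjusted p = 0.0220), while their rho of 0.38 did not pass the adjustment (p = 0.0290, adjusted p = 0.0654); r was 0.44 without those livers and 0.52 and 0.75 within the series. The other 5 relations, of Fos with Fosb, Junb, Myc, Klf6 and Klf4, had r of 0.20 to 0.27 with permutation p of 0.120 to 0.255 (adjusted p 0.215 to 0.255), and rho of 0.08 to 0.26 with p of 0.162 to 0.652 (adjusted p 0.222 to 0.652). Without libraries 8 and 20 their r was 0.22 to 0.43, the highest being that of Myc, and no test was made of these values. Junb differed between the series, with an r to Fos of 0.67 in the first and −0.12 in the second. Over all 45 pairs of members 43 had a positive r, with a median of 0.37 and a highest value of 0.76 for Jun and Atf3.

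**Figure D3:**
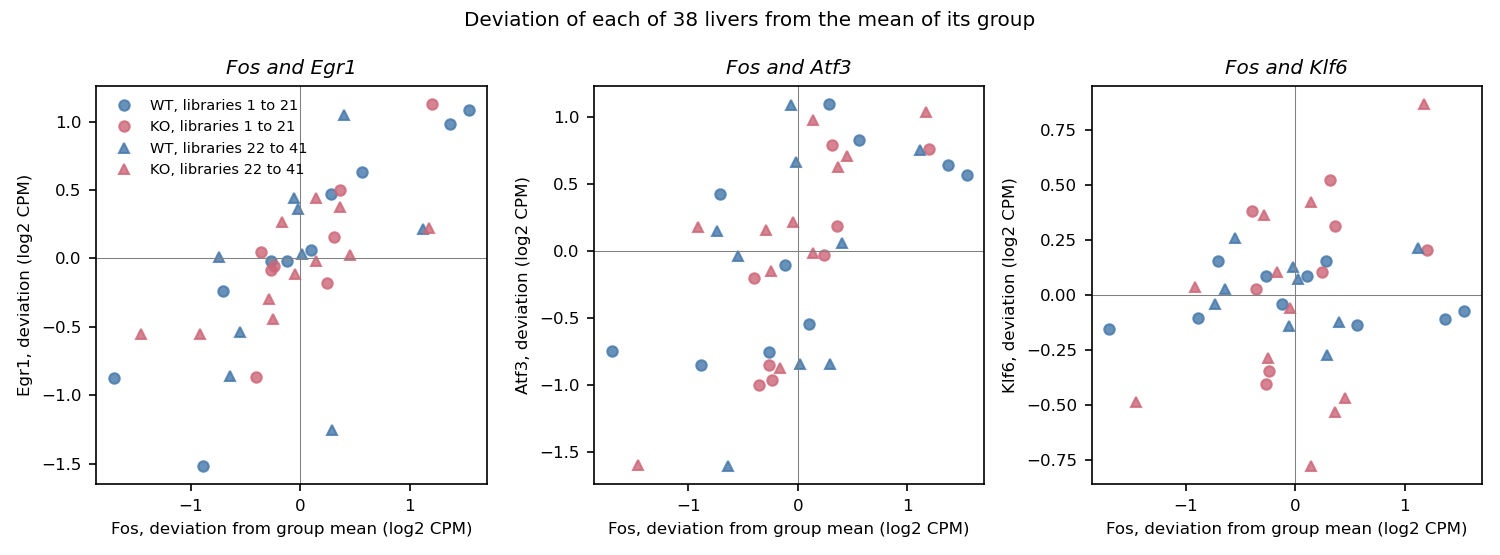
Each point is 1 of the 38 livers, placed by the deviation of Fos (horizontal axis) and of Egr1, Atf3 or Klf6 (vertical axis) from the mean of its group, both in log2 CPM; circles are libraries 1 to 21, triangles libraries 22 to 41, and colours the genotypes. Fos deviated together with Egr1 (r = 0.72) and Atf3 (r = 0.61), and its r with Klf6 was 0.20.

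As a description over the same 38 deviations, the 3 tested genes nearest to each member were drawn from all other genes. Picking the highest r among so many genes favours high values by itself. No chance level was computed, so the lower of these r may not differ from it. Those of Fos were Nr4a1 (r = 0.80), Btg2 (0.74) and Il1b (0.70), and those of Egr1 were Ier2 (0.71), Btg2 (0.66) and Nr4a1 (0.63), of which Nr4a1, Btg2 and Ier2 are themselves known immediate early genes. Those of Atf3 were C430039J01Rik (0.74), Ifrd1 (0.73) and Nr4a1 (0.72), and those of Jun were Ppp1r15a (0.70), AB124611 (0.69) and Gm37651 (0.68). Those of Fosb were Bax (0.77), Aen (0.68) and Mib2 (0.65). Klf6 had the closest neighbour of all members, with Nrg1 at 0.89, Anxa5 at 0.87 and Nid1 at 0.86.

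The remaining sets were as follows. Those of Junb were Mia3 (0.88), Topors (0.86) and Zhx1 (0.86), and those of Jund were Gnas (0.84), Psme1 (0.82) and Hist2h4 (0.81). Those of Myc were Kif7 (0.76), Palmd (0.72) and Ncaph2 (0.72), and those of Klf4 were Vcam1 (0.68), Cd84 (0.65) and Ifi209 (0.64). Of these neighbours Nrg1 and Anxa5 were called between the genotypes at 4 of 4 days and Nid1 at 3. All were higher in KO, with average log2 fold changes of 2.21, 1.11 and 1.07. Klf6 itself had an SD of 0.16 in WT and 0.47 in KO, so its r leans on the KO livers. No r was taken within a genotype, and the calls of its neighbours are not separate support for a link. Mia3 and Topors, the nearest to Junb, were lower in KO on average (−0.27 and −0.29, adjusted p = 0.00444 and 0.000407). With the mean of the group within the label series removed instead, a choice made after seeing the data, r was 0.84, 0.78 and 0.74 for the neighbours of Junb and 0.62, 0.61 and 0.50 for those of Jund, and 0.87 to 0.90 for those of Klf6.

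Some members differed between the label series. Jund was higher in the first series in 7 of the 7 groups that hold both, by a median of 0.33 log2 CPM, and Junb in 6 of 7, by a median of 0.89. Myc and Fosb were higher in the first series in 6 of 7 groups, by medians of 0.60 and 0.52, and Fos and Klf6 in 3 of 7. At day 21 the first series holds WT livers only among those used, so there the series and the genotype cannot be told apart outside the second series.

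The other genes of these pathways were read from lists, each described by its calls against the shares of all genes given above. Of 15 tested AP-1, ATF and CREB factors outside the members, 1 rose and 1 fell at day 3, 2 rose at day 6, 2 fell at day 12 and 1 rose at day 21. Fosl2, a FOS family gene, rose by 0.75, 1.09 and 0.77 at days 3, 6 and 21 and by 0.77 averaged (SE 0.10, adjusted p = 2.73e-07). Its call ended without library 23 at day 3 (0.72, adjusted p = 0.0551), and without library 19, 21, 37, 38 or 41 at day 21 (0.58 to 0.76, 0.0698 to 0.497), with the label series as a covariate (0.70, 0.0617) and with only the groups of the day (0.79, 0.0763), but it was called at day 6 without any 1 library. Batf3 rose by 1.03 at day 6, but not without library 8, 10 or 28 (0.88 to 1.02, adjusted p 0.0564 to 0.0876). Averaged over the days 2 rose and 3 fell, Atf1 (−0.22) and Mafg (−0.23) among the latter. Fosl1 had too few counts to be tested.

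For the values averaged over the days, the called genes named from the lists here and below stayed called without any 1 of the 38 libraries, 38 of 38 genes. They were picked among called genes by days called and then by the smallest p of the average. That share is therefore partly set by the choice and does not describe the lists as a whole. The named genes, with Batf3 and Ms4a1 beyond those 38, had 70 calls on single days. Of these, 28 stayed called without any 1 library of the day. The average is therefore the value given for most of the named genes. Among 4 tested EGR and NAB genes 1 rose at day 6 and at day 12 and it was Egr2, a relative of Egr1, with 1.69 on average (SE 0.30, adjusted p = 3.79e-05), while averaged over the days 1 rose and 1 fell; Egr4 was not tested. Among 13 tested KLF genes outside the members 1 fell at days 3 and 6 and 1 rose at day 12. Averaged over the days 2 rose and 4 fell; Klf9 (−0.32) and Klf12 (−0.29) were among the lower and Klf5 was higher at 1.35, or 0.83 without library 35. Klf8 and Klf14 were not tested.

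Of 30 tested immediate early and early response genes outside the transcription factors above, 0 were called at day 3 by edgeR (6 at an unadjusted p under 0.05 and 0 by DESeq2), 6 rose and 1 fell at day 6, 2 rose at day 12 and 1 rose at day 21, while averaged over the days 12 rose and 2 fell; Arc was not tested. Socs3, a feedback inhibitor of cytokine signalling, rose by 2.19 and 2.13 at days 6 and 12, and both calls held without any 1 library. Ier3, an early response gene tied to cell survival, rose by 2.25 at day 6 and by 1.50 averaged (SE 0.22, adjusted p = 2.74e-06). The orphan nuclear receptor Nr4a3 was 1.43 higher in KO on average and the matrix protein gene Ccn2 0.79 higher. The list's median log2 fold change was −0.04, 0.19, 0.20 and 0.19 on the 4 days.

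Among 19 upstream kinases and SRF or ELK factors 1 rose at day 3, 3 rose and 1 fell at day 6, and 1 rose at each of days 12 and 21. On average 4 rose and 6 fell. Among those that rose the EGF receptor gene Egfr was 0.74 higher in KO, the SRF coactivator Mrtfa 0.40, and the kinases Mapk3 and Rps6ka3 0.27 and 0.29. Of 11 partners and antagonists of MYC edgeR called 0 on each day, with 1, 3, 1 and 2 at an unadjusted p under 0.05 and 0, 1, 0 and 0 by DESeq2; averaged over the days 1 rose and 2 fell. Of 9 textbook MYC targets 1 rose at day 3, Ccnd2, which was 0.26 higher averaged over the days (4 of 9 rose by that value), and edgeR called 0 at days 6, 12 and 21 (2, 3 and 1 at an unadjusted p under 0.05, and 0, 0 and 1 by DESeq2). Of 13 clock genes 1 fell at day 6 and 1 at day 12, in both cases Cry1 (−0.93 and −0.66; −0.50 averaged), and 13 of 13 were lower in KO averaged over the days, 2 of them called, although 8 of 13 were higher at day 12 and 6 of 13 at day 21; the hour of sampling is not in the labels.

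Of 10 textbook AP-1 targets 2, 6, 5 and 3 rose at days 3, 6, 12 and 21 and 0 fell, with median log2 fold changes of 0.86, 2.16, 1.34 and 1.57. Timp1, an inhibitor of matrix metalloproteinases, rose by 4.39, 6.31, 3.47 and 3.80 on the 4 days (adjusted p = 0.00109, 2.96e-05, 0.00369 and 0.00444), the last not without library 37 (2.83, 0.239). Spp1, which encodes the matrix protein osteopontin, rose by 2.68, 3.22, 2.06 and 2.90, and each of these calls held without any 1 library. Plaur and Cd44 were 1.39 and 0.83 higher in KO on average. Other factors also act on these genes, and Spp1 also stands on the list of cholangiocyte markers.

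Markers of liver cell types were read beside the members, since whole liver holds them all. Cholangiocyte markers (6 of 6 tested) were higher in KO on every day, 5, 5, 4 and 3 of them called at days 3, 6, 12 and 21. Their summed level was 34.3 to 48.8 CPM over the WT livers and 107 to 754 CPM over the KO livers used, and 91.9% of the sum was Spp1. Cftr, a defining marker with 0 counts in some libraries, rose by 2.92 on average, Epcam by 1.39 and Krt7 by 1.58. Neutrophil markers summed to 6.96 to 27.2 CPM in the KO livers of day 6 and to 0.716 to 1.69 CPM in WT. The 3 tested of 6, S100a8, S100a9 and Cxcr2, rose by 3.53, 3.49 and 4.22 at that day, and S100a9 made up 49.7% of the sum. Ly6g, Mpo and Elane were at 0 in some libraries and not tested, and Cxcr2 also had 0 counts in some. At days 3, 12 and 21 edgeR called 0, 1 and 1 of the 3 (0, 2 and 1 by DESeq2). At day 12 the sums overlapped, at 0.705 to 6.31 CPM in KO and 0.622 to 1.20 CPM in WT.

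Hepatocyte markers (8 of 8 tested) were present throughout, led by Alb with 77.4% of their sum. They summed to a mean of 125890 CPM in WT and 81835 CPM in KO at day 6, and Alb fell by 0.67 and Ttr by 0.64 at that day, the calls ending without library 29 (−0.55 and −0.48, adjusted p = 0.0669 and 0.0998) and, for Ttr, without library 8 (−0.57, 0.0703). Both ended with only the libraries of the day (adjusted p = 0.180 and 0.111), and that of Alb also without a filter on low counts (0.0577) and with the edgeR 4 computation (0.216). Alb fell by 0.46 averaged over the days (adjusted p = 0.000157) and Ttr by 0.40 (0.000678), and both calls held under every omission and setting. Macrophage markers (6 of 6 tested, led by Cd5l with 35.1%) summed to a mean of 713 CPM in KO and 540 CPM in WT at day 6. On that day 3 rose, Itgam by 2.53, Cd68 by 0.88 and Csf1r by 0.45. The calls of Cd68 and Csf1r each ended without library 28 or 29, among others. At day 3 the means were 503 CPM in KO and 536 CPM in WT, and edgeR called 0 of 6 at days 3, 12 and 21 (0, 5 and 0 at an unadjusted p under 0.05, and 0, 1 and 0 by DESeq2); averaged over the days 4 rose and 0 fell. Stellate cell and myofibroblast markers (6 of 6 tested, led by Reln with 65.7%) had 2, 2, 2 and 1 higher calls and 0, 0, 1 and 0 lower calls on the 4 days. Among these Col1a1 rose by 2.74 and Pdgfrb by 0.80 averaged over the days, Reln was lower at −0.21, and Des was higher at 0.93, or 0.61 without library 37.

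Endothelial markers (6 of 6 tested, led by Stab2 with 42.2%) had 1 lower call at day 6, Kdr, and 1 of each direction at day 12; averaged over the days Kdr was lower at −0.27 and Vwf higher at 0.40. T and B cell markers (6 of 6 tested) had 1 lower call at day 3, Ms4a1 at −1.68, which was −0.25 without library 26. Of 5 red blood cell markers, led by Hbb-bs with 66.9%, edgeR called 0 on each day, as did DESeq2, with 0, 0, 1 and 0 at an unadjusted p under 0.05.

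The cholangiocyte marker sums were set beside Klf6 among the KO livers, without a test. At day 3 libraries 4 and 22, with the lowest Klf6, had cholangiocyte marker sums of 127 and 112 CPM, and libraries 2, 3 and 23 had 403, 289 and 378 CPM. At day 12 library 32 was lowest in both (107 CPM) and library 12 highest in both (217 CPM), and at day 21 library 38 was lowest (134 CPM) and library 37 highest (482 CPM) in both. Day 6 was an exception at its low end, where library 31 was lowest in Klf6 at a sum of 276 CPM and library 6 lowest in the sum at 165 CPM. Library 29, the highest of all 38 in Fos, Fosb, Atf3 and Klf6, also had the highest cholangiocyte (754 CPM) and neutrophil (27.2 CPM) sums and the lowest hepatocyte sum (56897 CPM). Stellate cell sums had the order of Klf6 at day 21 (520, 419 and 306 CPM in libraries 37, 40 and 38) but not at day 12, where library 12 had 309 CPM and library 13 had 375 CPM. At day 3 library 23 was highest (493 CPM) and library 22 lowest (221 CPM) in both, while library 3 had 265 CPM against 380 CPM in library 2. At day 6 libraries 29, 30 and 7 had the order of Klf6 (474, 376 and 343 CPM), while library 31 had 325 CPM against 291 CPM in library 6. Macrophage sums went both ways. At day 6 library 29 was highest (781 CPM) and library 31 lowest (615 CPM) in both, and at day 12 library 32 was lowest in both (310 CPM). At day 12 library 12, highest in Klf6, had 400 CPM against 564 CPM in library 11. At day 3 library 3 had the highest sum (601 CPM) and library 2 the lowest (430 CPM), neither being an extreme of Klf6. At day 21 library 38, lowest in Klf6, had the highest macrophage sum of the 3 KO livers (558 CPM). The part of a changed makeup of cells in the members' differences was not tested.

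Promoters from RefSeq (GRCm38.p6, 250 bases before to 50 after the start) were read for 8 members. Egr1 and Myc were left out, which does not show that RefSeq lacks promoters for them. The promoters of Fos, Fosb, Atf3 and Klf6 are printed because these are the members called between the genotypes. Both strands were searched for the CRE letters TGACGTCA (in 1.79% of all 32851 promoters of that length) and their shorter form TGACG (20.8%), which lies within the longer, the AP-1 letters TGANTCA (7.81%), the E-box CACGTG (7.15%), the EGR letters GCGNGGGCG (5.55%), TATAAA (13.6%) and the CArG box by name (1.63%). TGACG was found in 5 of the 8 windows (Fos, Fosb, Junb, Atf3 and Klf4), CACGTG and the EGR letters in 2 each and TATAAA in 2, and TGACGTCA, TGANTCA and the CArG box in 0. Letters more than 250 bases before the start, and those of Egr1 and Myc, were not searched. A count of 0 therefore holds for these windows only. In the sequences capitals mark the letters found: TGACG at both its places and TATAAA in Fos, TGACG and the EGR letters in Fosb, TGACG read on the other strand in Atf3, and CACGTG in Klf6.
Fos promoter, chr12:85473640-85473939, plus strand: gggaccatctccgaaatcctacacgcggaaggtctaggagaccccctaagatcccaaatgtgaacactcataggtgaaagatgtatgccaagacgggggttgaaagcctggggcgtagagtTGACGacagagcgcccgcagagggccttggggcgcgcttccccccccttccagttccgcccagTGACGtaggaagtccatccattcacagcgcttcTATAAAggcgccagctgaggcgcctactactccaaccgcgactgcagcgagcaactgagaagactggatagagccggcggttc
Fosb promoter, chr7:19309996-19310295, minus strand: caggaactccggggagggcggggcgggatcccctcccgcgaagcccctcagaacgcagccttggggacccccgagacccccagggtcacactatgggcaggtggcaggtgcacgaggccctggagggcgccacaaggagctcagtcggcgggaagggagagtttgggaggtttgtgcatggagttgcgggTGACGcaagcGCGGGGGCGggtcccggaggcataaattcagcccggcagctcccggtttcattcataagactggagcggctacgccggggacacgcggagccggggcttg
Atf3 promoter, chr1:191183284-191183583, minus strand: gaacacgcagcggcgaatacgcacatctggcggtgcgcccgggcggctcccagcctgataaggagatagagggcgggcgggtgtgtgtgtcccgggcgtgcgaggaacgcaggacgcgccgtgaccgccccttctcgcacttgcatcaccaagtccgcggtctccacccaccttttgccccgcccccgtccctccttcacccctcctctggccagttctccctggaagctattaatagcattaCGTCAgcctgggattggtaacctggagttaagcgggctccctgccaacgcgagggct
Klf6 promoter, chr13:5861239-5861538, plus strand: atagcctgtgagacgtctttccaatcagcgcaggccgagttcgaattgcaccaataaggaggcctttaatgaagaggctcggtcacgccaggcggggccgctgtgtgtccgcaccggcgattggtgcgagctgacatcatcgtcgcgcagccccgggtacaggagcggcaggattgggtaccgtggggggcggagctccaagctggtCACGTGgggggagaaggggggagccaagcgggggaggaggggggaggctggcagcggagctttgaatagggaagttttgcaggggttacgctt
A match describes letters in the window and not a bound site. The RefSeq start used lies 0 bases from the GENCODE M21 gene start for Fos, 6 for Fosb and 7 for Klf6, but 34706 bases inside the gene for Atf3 and 1210 bases from it for Jund, so other starts of those genes were not read.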

How the data were processed

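Gene counts were deposited by the authors as raw counts, 1 column per library. Per the labels and the study's methods, reads were aligned to GRCm38 with STAR 2.7.2b and a GENCODE M22 annotation, and fragments were counted per gene with featureCounts 1.6.4; the strand setting is not stated. From these counts the following was computed. Ensembl identifiers were matched to symbols, genes were filtered with filterByExpr (minimum count 10, minimum total 15, proportion 0.7), libraries were scaled by TMM, and edgeR 4.0.16 (R 4.3.3) fitted quasi-likelihood models with 1 mean for each of the 8 groups to the 38 libraries. Benjamini-Hochberg adjustment ran over all 20297 tested genes. Levels are given as log2 CPM, the prior count being 2. Members were also compared 1 by 1 by exact permutation tests in Python 3.11.15, and correlations by 100000 permutations within groups. The edgeR and DESeq2 fits were checked on simulated counts in which the changed genes had a log2 fold change of 2. That is larger than the fold change of any member, so smaller changes were not checked. Alternatives were DESeq2 1.42.0, its size factors in edgeR, other filters, all 40 libraries, the groups of the day alone, other dispersion computations, the label series as a covariate and the omission of each library. From each other list at most 4 called genes were named, those called at the most days, ties by the smallest p of the average over the days, and for each member its 3 nearest genes. Coordinates are from GENCODE M21. The members and lists were chosen with earlier results of these data known.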

Additional observations from a re-analysis of the deposited data

Results flagged for a closer look

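Single livers stood far from the others of their group in 4 of 70 tests, 1 for each member and each group of 4 or more livers, and chance alone gives about 1 in 20 groups. Fos in WT library 5 of day 3 was at 3.25 log2 CPM, the highest of its group, with the next liver at 1.82. Fosb in WT library 28 of day 6 was at −2.33, the lowest of its group (3 counts), with the next at −1.66, and in WT library 33 of day 12 at −2.37 (4 counts), with the next at −1.07. Jun in WT library 19 of day 21 was at 4.83, the lowest of its group, with the next at 5.64. All 4 are WT livers, and their causes were not tested.

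The 2 KO libraries of day 21 that the labels mark as failing quality control entered none of the main comparisons. They entered only the alternatives with all 40 libraries. In library 18 (15935527 counts) Myc was at 3.26 log2 CPM and Klf6 at 5.06, above the highest WT livers of that day at 2.76 and 4.73 when scaled together, whereas in library 17 Klf6 was at 3.56, below every WT liver of that day. Of 20 member values in the 2 libraries, those 2 of library 18 lay above all WT livers and 9 lay below all of them (6 in library 17, with Jun among them, and Junb, Jund and Klf4 in library 18).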

How the results depend on the processing

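Counts of members called within the 8 comparisons were within 1.5 times the reported count under 57 of 68 alternatives other than single omissions. At day 21, for the interaction and for the day effect in KO the count was 0 throughout, and these values are among the 57. A change of exactly 1.5 times, as for the average with the label series as a covariate, was counted as within. Fitting all 40 libraries gave 0 at day 3, 0 at day 12 and 0 for the day effect in WT. Fitting only the groups of the day gave 0 at days 3 and 6. At day 12 the count was 0 without a filter beyond 1 count, 2 with at least 10 counts in every library (Fosb was then not tested), 0 with robust estimation and 2 with the series of label numbers as a term; for the day effect in WT it was 0 with robust estimation and 2 with that term. The causes were not tested.

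Omitting 1 library at a time gave 0 to 1 members at day 3, 0 to 3 at day 6, 0 to 2 at day 12, 0 to 0 at day 21, 2 to 5 averaged, 0 to 0 for the interaction, 0 to 2 for the day effect in WT and 0 to 0 in KO. Of 35 uncalled fold changes of members on single days, 32 moved by over 1.5 times without some library, for instance to 0.0724 to 0.47 (Jun, day 3), 0.22 to 0.73 (Junb, day 6) and 0.0702 to 0.60 (Atf3, day 12). The sign changed in 10, with ranges of −0.38 to 0.0246 (Junb), −0.12 to 0.0703 (Jund), −0.39 to 0.0932 (Egr1), −0.0869 to 0.55 (Atf3) and −0.19 to 0.12 (Klf4) at day 3, −0.0932 to 0.39 (Fosb) and −0.31 to 0.11 (Jund) at day 12, and −0.0869 to 0.15 (Jun), −0.13 to 0.0827 (Jund) and −0.0524 to 0.55 (Myc) at day 21.

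Fold changes of members kept direction and side of the threshold in 412 of 435 values; 13 lost and 5 gained a call. The sign changed in 5, none of them called: Klf4 at day 3 with at least 10 counts in every library (0.00537), Jun (−0.21), Junb (−0.32) and Klf4 (−0.29) at day 21 with all 40 libraries, and Jund at day 21 with that term (0.26). The other named genes kept their call in 823 of 901 values. With all 40 libraries and with a prior count of 0.5, the Pearson correlations with Fos kept their side in 18 of 18 values (by rho that of Jund did not pass, and within the label series r changed sign for Fosb, Junb and Klf6), and the within-group SDs moved by less than 1.5 times in 10 of 10. Of the 30 correlations with nearest genes, 29 stayed within 1.5 times when the mean of the group within the label series was removed, an alternative chosen after seeing the data; that of Jund with Hist2h4 went from 0.81 to 0.50.

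Depth limits Fosb most, at 2 to 75 counts per library. No paired analysis was possible because the groups share no replicate numbers.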

Other observations

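In failed library 17 (12287423 counts) the members moved apart from one another. Fosb and Klf4 had 0 counts, Jund stood at 0.82 log2 CPM with 22 counts against 3.15 to 3.82 in WT, and Junb at 3.62 against 5.33 to 6.57. Fos at 2.61, Egr1 at 4.68 and Atf3 at 2.79 lay within the WT range of day 21. In library 18 Jund stood at 2.91, below the WT range, and Klf4 at −0.07 against 0.88 to 1.44. In both libraries Nampt, at 5.83, lay below every WT liver of that day.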
